A study of Sus scrofa with 5 samples.

Results

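Untreated split-thickness skin grafts explanted from pigs at day 90 (STSG day 90) were compared with unwounded pig skin by droplet-based single-cell RNA sequencing. A split-thickness graft is a sheet of epidermis with part of the underlying dermis. In this study it covered a full-thickness wound, and other grafts of the series received a hydrogel with an inhibitor of focal adhesion kinase (FAK). Neither STSG day 90 nor unwounded skin received the inhibitor, and the unwounded skin carries no time point. Both tissues were digested with enzymes and submitted fresh. Every barcode with at least 500 detected genes was taken as a cell. This gave 5706 cells of STSG day 90 and 1586 cells of unwounded skin, together 7292 of the 28654 such cells in the 5 libraries of the series. Each group is 1 library, so there was no spread between replicates and no p-value could be given. All intervals are 95% intervals for counting error only. The labels name no strain, age, sex or body site, and they do not say how many pigs contributed to a library. Differences between animals, between digestions and between graft and unwounded skin therefore cannot be told apart.

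Dermal fibroblasts make and remodel the collagen-rich matrix of skin. In a healing wound some of them acquire the actin filaments of smooth muscle and are then called myofibroblasts, and the matrix that they leave differs from intact dermis in its collagens, matricellular proteins and crosslinking enzymes. Keratinocytes form the epidermis above the dermis, and hair follicles and glands grow down from it.

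The libraries differed in depth. The kept cells held 79217940 unique molecular identifiers (UMIs, counts of captured RNA molecules) in STSG day 90 and 18191126 in unwounded skin, with medians of 9877 and 7430.5 UMIs per cell. Mitochondrially encoded genes took 3.05% of UMIs in STSG day 90 and 5.22% in unwounded skin. The 3 Y-linked genes that were measured had 0 UMIs in both libraries. Of the cell barcodes, 42 occurred in both libraries, which is 2.65% of the smaller one, and in 40 of them the shallower copy held at most 1.59% of the UMIs of the deeper copy. The shallower copy lay in STSG day 90 for 32 barcodes and in unwounded skin for 8. Copies with under 5% of the UMIs of the same barcode in any other library of the series numbered 34 in STSG day 90 and 31 in unwounded skin. Their UMIs made up 0.0514% of STSG day 90 and 0.154% of unwounded skin. Without them, 395 of the genes called higher below and 719 of those called lower were called again.

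Clusters of cells were named by marker genes, and a name such as fibroblast-like says only that those markers were raised. Fibroblast-like cells made up 36.9% of STSG day 90 cells (95% interval 35.6 to 38.1) and 16.3% of unwounded cells (14.5 to 18.2). Endothelial-like cells made up 22.3% of STSG day 90 and 38.6% of unwounded skin. Keratinocyte-like cells were 35 of 5706 in STSG day 90 (0.613%) and 155 of 1586 in unwounded skin (9.77%). Of the 35, 9 were shallow copies of barcodes held by another library, which leaves 26 cells or 0.458%. Glandular epithelial-like cells were 23 in STSG day 90 and 41 in unwounded skin. Myeloid-like cells made up 5.84% of STSG day 90 and 1.32% of unwounded skin. B or plasma-like cells numbered 62 in STSG day 90, against 0 of 1586 in unwounded skin, which allows a share of up to 0.189% by a count of 3 cells and of 0.232% by the exact binomial interval. Enzymatic digestion can release cell types unequally, and its part in these shares was not tested.

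**Figure D1:**
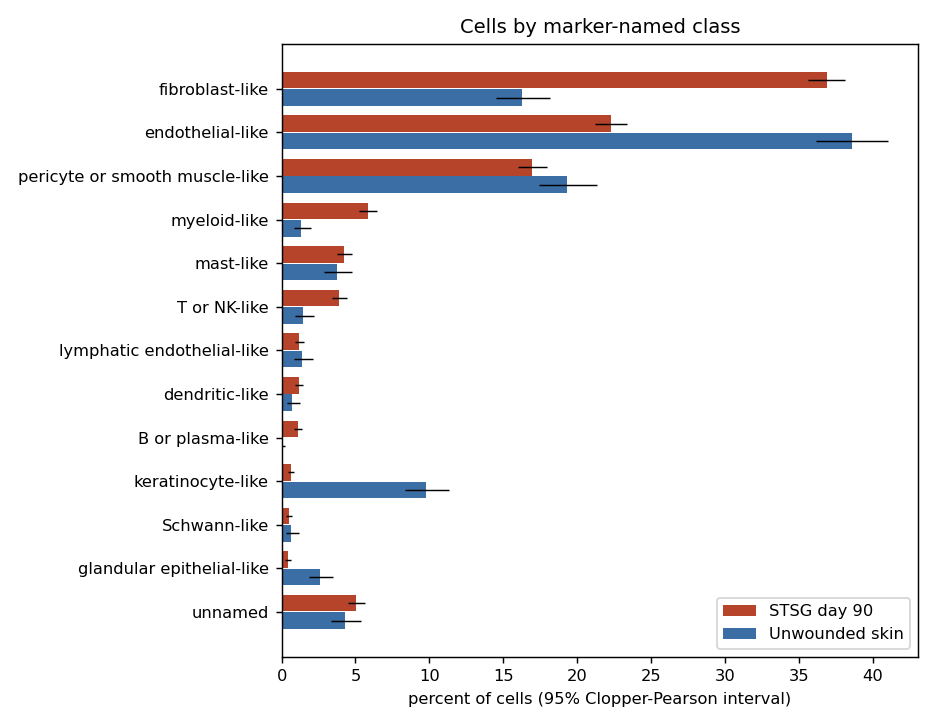
Share of cells in each marker-named class (horizontal axis, percent of cells) in STSG day 90 (red) and unwounded skin (blue). Bars are shares of all kept cells and lines are 95% exact binomial intervals. Fibroblast-like cells were 36.9% in STSG day 90 and 16.3% in unwounded skin, and keratinocyte-like cells were 0.613% and 9.77% in the same order of groups.

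The defining markers of skin were present in both libraries. KRT5 and KRT14, the keratins of basal keratinocytes, were highest in keratinocyte-like cells of both libraries. PECAM1, CDH5 and VWF, which mark endothelium, were highest in endothelial-like cells of both. Markers of melanocytes were scarce, with TYR at 0 UMIs in STSG day 90 and 1.26 counts per 1000000 UMIs (CPM) in unwounded skin. PAX7 of skeletal muscle stem cells had 0 UMIs in both.

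The first question was which genes differed between the whole libraries. UMIs were summed over all cells of a library and scaled to CPM, and a gene was counted where it reached 10 CPM in either library. Of 7781 counted genes, 395 (5.08%) were at least 2-fold higher in STSG day 90 and 720 (9.25%) were at least 2-fold lower. The fold sets a size and tests nothing. At least 4-fold differences were found in 122 genes that were higher and 173 that were lower, and at least 10-fold differences in 46 and 89. The median log2 ratio of all counted genes was -0.20. In such sums, more cells of a kind and more RNA per cell cannot be told apart. The classes of STSG day 90 were therefore also weighted to the UMI shares that the classes had in unwounded skin. After that weighting, 140 of the 395 genes (35.4%) were still 2-fold higher and 181 of the 720 (25.1%) still 2-fold lower.

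**Figure D2:**
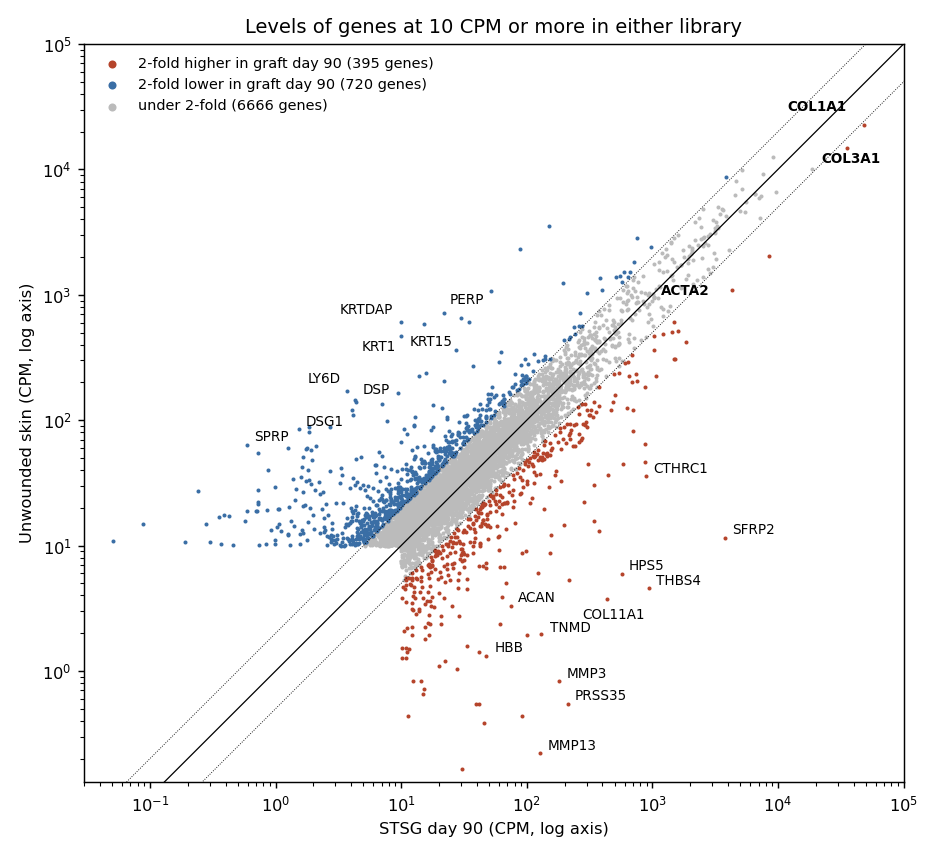
Level of each counted gene in STSG day 90 (horizontal axis, CPM, log scale) and unwounded skin (vertical axis, CPM, log scale). The solid line marks equal levels and the dotted lines 2-fold differences. Red points are the 395 genes 2-fold higher in STSG day 90, blue points the 720 genes 2-fold lower. SFRP2, THBS4, COL11A1 and MMP13 lie far to the right of the band, and epidermal genes such as KRTDAP and KRT15 far above it.

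Among genes at 50 CPM or more, the largest ratios belonged mostly to secreted matrix proteins and proteases of fibroblasts. SFRP2, a secreted modulator of Wnt signalling, had 3758 CPM in STSG day 90 and 11.6 CPM in unwounded skin, a 324-fold difference (283 to 373). THBS4, a matricellular protein of tendon and of remodelling tissue, had 934 CPM in STSG day 90 and 4.56 CPM in unwounded skin, which is 205-fold (165 to 257). COL11A1, a minor fibrillar collagen best known from cartilage, stood at 438 CPM in STSG day 90 and 3.74 CPM in unwounded skin. These 3 genes were each over 100-fold higher in STSG day 90.

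Other genes of the group act in matrix assembly. CTHRC1, a secreted protein of activated fibroblasts, had 887 CPM in STSG day 90 and 35.8 CPM in unwounded skin, a 24.8-fold difference (22.9 to 26.8). COL8A1, a short-chain collagen, had 217.5 CPM in STSG day 90 and 5.28 CPM in unwounded skin (41.2-fold). FNDC1, a fibronectin-domain protein, was 28.7-fold higher. ACAN, the core protein of cartilage aggrecan, was 22.6-fold higher with 74.4 CPM in STSG day 90 against 3.30 CPM in unwounded skin. TNMD, a membrane protein of tendon cells, had 128.7 CPM in STSG day 90 and 1.98 CPM in unwounded skin (65.0-fold, 46.9 to 92.9).

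Of the 2 libraries, STSG day 90 held nearly all counts of a collagenase and a stromelysin. MMP13, a collagenase, had 10099 UMIs or 127.5 CPM in STSG day 90 and 4 UMIs or 0.220 CPM in unwounded skin. MMP3, which cleaves proteoglycans and activates other metalloproteinases, had 181 CPM in STSG day 90 and 0.825 CPM in unwounded skin (219-fold, 133 to 392). These UMIs lay in few cells. In STSG day 90, 10 cells held 35.4% of the MMP13 UMIs and 37.2% of the MMP3 UMIs. PRSS35, a serine protease family member, was spread more widely, with 212.5 CPM in STSG day 90 and 0.550 CPM in unwounded skin. Its 10 richest STSG day 90 cells held 3.62% of its UMIs. IL11, a cytokine of the IL-6 family, was 25.7-fold higher (19.1 to 35.6), at 60.8 CPM in STSG day 90 and 2.36 CPM in unwounded skin. MAP1LC3C, an autophagy protein, had 91.1 CPM in STSG day 90 and 0.440 CPM in unwounded skin.

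The remaining 2 of the 15 genes are uncertain. HPS5 had 569 CPM in STSG day 90 and 5.94 CPM in unwounded skin. In the RefSeq table of the pig assembly Sscrofa11.1, the genes next to it after the pseudogene SAA1P include the acute-phase genes SAA2, SAA4 and SAA3, and whether the counts tell them apart was not given in the sources used here. HBB, the beta chain of haemoglobin, had 100.9 CPM in STSG day 90 and 1.92 CPM in unwounded skin. In STSG day 90, 10 cells held 99.0% of its UMIs. Its log2 ratio was 5.71 with all cells and 4.07 without likely doublets. ALAS2, another erythroid gene, had 0.341 CPM in STSG day 90 and 0 UMIs in unwounded skin.

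Within the series, 12 of these 15 genes were higher in STSG day 90 than in any of the 4 other libraries. At day 7, SFRP2 stood at 539 CPM in the untreated graft and 388 CPM in the inhibitor-treated graft. The inhibitor-treated graft of day 90 had 878 CPM. The exceptions were HBB, which was higher in the untreated graft at day 7, and HPS5 and IL11, which were higher in the inhibitor graft at day 7. These libraries too are 1 per group, and the differences were not tested.

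The next question was how large the differences were within fibroblast-like cells. STSG day 90 had 2104 of them (median 17465 UMIs per cell) and unwounded skin 258 (median 10299). Of 6849 genes counted within them, 508 (7.42%) were 2-fold higher in STSG day 90 and 762 (11.1%) were 2-fold lower. All 15 genes above were among the 508, which is no separate support. They were chosen for their whole-library ratios, and these cells held 84.3 to 97.9% of their STSG day 90 UMIs, except for HBB (24.2%). The same UMIs were thus largely counted again. SFRP2 had 7211 CPM in STSG day 90 fibroblast-like cells and 52.0 CPM in those of unwounded skin, a 139-fold difference (119 to 162.5). After every cell was thinned to 2000 UMIs, SFRP2 was detected in 72.8% of STSG day 90 fibroblast-like cells and 6.83% of unwounded ones. In T or NK-like cells, which should lack it, the thinned share was 12.98% in STSG day 90 and 0 of 16 cells in unwounded skin.

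THBS4 was 93.5-fold higher in fibroblast-like cells (1758 CPM in STSG day 90, 18.8 CPM in unwounded skin) and COL11A1 50.9-fold (812 and 15.97 CPM in the same order). MMP13 had 249.6 CPM in STSG day 90 fibroblast-like cells and 0 UMIs in the 258 unwounded ones. Against a floor of 3 UMIs over the unwounded cells, that is 266-fold higher, with a lower 95% limit of 216-fold. MAP1LC3C also had 0 UMIs there and was 179-fold higher against that floor (lower limit 145.8), at 168.5 CPM in STSG day 90. COMP, a pentameric protein of cartilage and tendon matrix, had 89.2 CPM in STSG day 90 against 0 UMIs. It was 94.98-fold higher against the floor (lower limit 77.2). LUZP2, a leucine zipper protein, behaved alike with 76.9 CPM in STSG day 90 against 0 UMIs, 81.8-fold higher against the floor (lower limit 66.5).

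The fibroblast-like cells of the graft were not 1 population. They fell into 6 clusters, and 3 of these, with 1484 STSG day 90 cells, held none from unwounded skin. The other 3 clusters held 620 STSG day 90 and 258 unwounded cells. Because the clusters were built from the same genes, their levels are a description only. MMP13 stood at 992 CPM in the 386 cells of one graft-only cluster and at no more than 0.726 CPM in the other fibroblast-like clusters. MMP3 (1406 CPM) and IL11 (395 CPM) peaked in the same cluster. TNMD (1385 CPM) and THBS4 (4640 CPM) peaked in another graft-only cluster of 331 cells. ACTA2 was highest at 799 CPM in the third, of 767 cells.

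Restricted to the 3 shared clusters, 266 of 6789 genes (3.92%) were 2-fold higher in STSG day 90 and 308 (4.54%) were lower. Of the 15 genes, which were chosen from these same data, 12 were counted there and all 12 were higher. SFRP2 was 78.0-fold higher in these clusters (4055 CPM in STSG day 90, 52.0 CPM in unwounded skin), against 139-fold over all fibroblast-like cells. PRSS35 was 24.2-fold higher, against 180-fold over all fibroblast-like cells, and COL11A1 17.5-fold, against 50.9-fold. THBS4 was 14.4-fold higher in the shared clusters, against 93.5-fold, and CTHRC1 5.88-fold, against 9.34-fold. COL8A1 was 21.4-fold higher, against 22.1-fold. IL11 (5.42 CPM in STSG day 90, 3.45 CPM in unwounded skin) and MMP13 (0.241 CPM and 0 UMIs in the same order) fell under the level that was counted. Values over the shared clusters pool them, and their mix differed. The cluster with 137 unwounded cells held 53.1% of unwounded but 9.08% of STSG day 90 fibroblast-like cells. There SFRP2 had 242 CPM in STSG day 90 and 35.2 CPM in unwounded skin. COL8A1 had 40.9 and 11.2 CPM in the same order, and COL11A1 86.9 and 20.0 CPM. In the other shared clusters SFRP2 had 7080 and 98.4 CPM, and 4917 and 32.4 CPM.

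**Figure D3:**
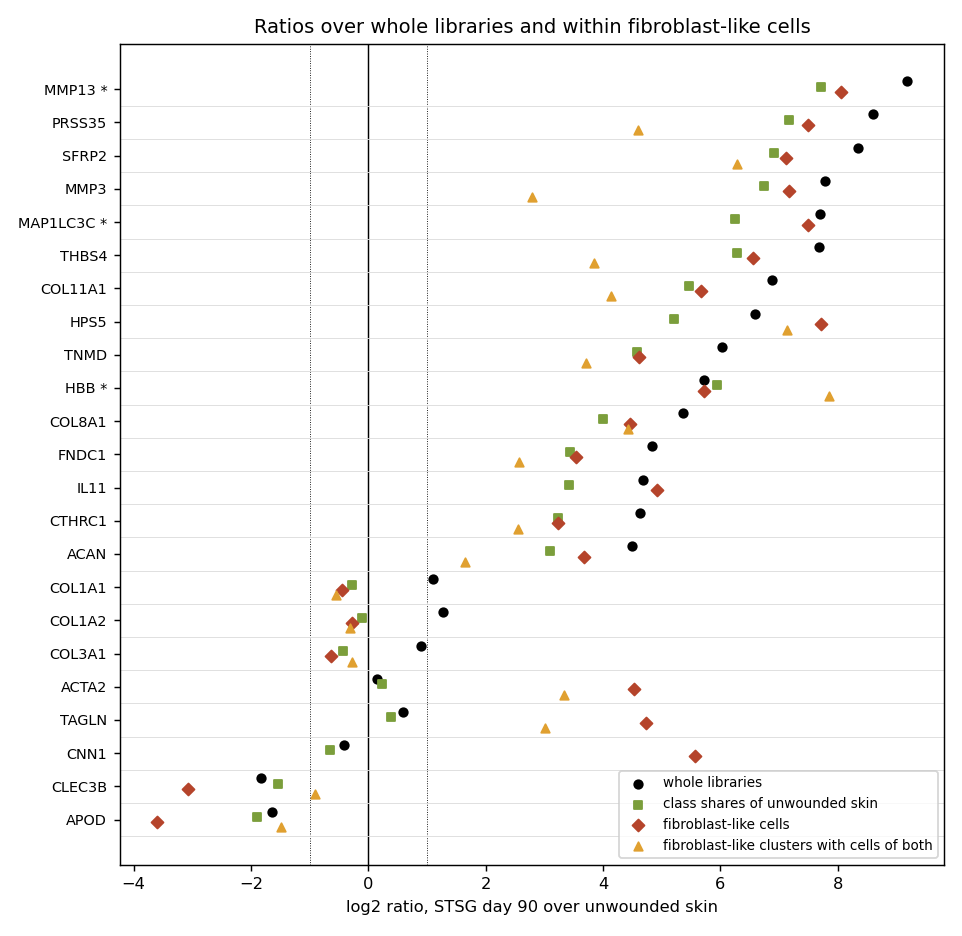
Log2 ratio of STSG day 90 over unwounded skin (horizontal axis) for the 15 genes with the largest whole-library ratios and for 8 collagen, contractile and dermal fibroblast genes. Symbols mark the whole libraries, the class-weighted libraries, fibroblast-like cells, and the 3 fibroblast-like clusters that hold cells of both libraries. An asterisk marks genes with 0 UMIs in unwounded fibroblast-like cells, whose ratio there is set against a floor of 3 UMIs. A missing symbol marks a gene under the counted level. COL1A1 lies right of 0 for whole libraries and left of 0 within fibroblast-like cells, while ACTA2 does the opposite of a collagen, near 0 for whole libraries and at 22.9-fold within fibroblast-like cells.

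The main skin collagens were higher over the libraries and, in CPM, lower by less than 2-fold within fibroblast-like cells. COL1A1, one chain of type I collagen, had 48002 CPM in STSG day 90 and 22503 CPM in unwounded skin, a 2.13-fold difference. Within fibroblast-like cells it was lower in STSG day 90, at 89057 CPM against 121950 CPM in unwounded skin, a ratio of 0.730 (0.728 to 0.733). COL1A2, the other type I chain, was 2.40-fold higher over the libraries and had a ratio of 0.826 within fibroblast-like cells. COL3A1, the type III chain, had 18789 CPM in STSG day 90 and 10148 CPM in unwounded skin, and 34434 and 53753 CPM within fibroblast-like cells in the same order. COL1A1 also stood at 1811 CPM in T or NK-like cells of STSG day 90 and at 114.5 CPM in those of unwounded skin.

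For the lists below, the shares over all counted genes were 5.08% higher and 9.25% lower over the libraries. Within fibroblast-like cells they were 7.42% and 11.1%, and in the shared clusters 3.92% and 4.54%. Of 8 fibrillar collagens counted, 5 were 2-fold higher and 0 lower over the libraries (median log2 ratio 1.18). Within fibroblast-like cells 3 were higher and 1 lower (median -0.10). The median over all genes counted in fibroblast-like cells was -0.01. COL5A2, which helps to set fibril diameter, had 1487 CPM in STSG day 90 and 306 CPM in unwounded skin, and was 2.03-fold higher within fibroblast-like cells. COL5A1, its partner chain, had a ratio of 1.05 within fibroblast-like cells. Of 10 counted chains of types VI, VIII, XII, XIV and XVI and their relatives, 5 were higher and 2 lower over the libraries, and within fibroblast-like cells 4 were higher and 2 lower (median log2 ratio -0.09). COL12A1, a collagen that links fibrils, had 1073 CPM in STSG day 90 and 225 CPM in unwounded skin, and was 2.18-fold higher within fibroblast-like cells. COL8A2 (26.7-fold over the libraries) and COL6A6 (7.47-fold) were higher both over the libraries and within fibroblast-like cells. COL21A1, a fibril-associated collagen, was lower within fibroblast-like cells, at 5.98 CPM in STSG day 90 and 90.2 CPM in unwounded skin, as was COL6A5, a type VI chain, at 22.7 CPM in STSG day 90 and 114 CPM in unwounded skin.

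Matricellular proteins sit in the matrix and signal to cells. Within fibroblast-like cells 12 of 22 counted members were higher and 1 lower (median log2 ratio 1.34). Of all genes counted in these cells, 7.42% were higher and 11.1% lower. In the shared clusters 8 of 21 members were higher and 1 lower (median 0.73). Over the libraries 13 of 21 were higher and 1 lower. TNC, tenascin-C of wounds and tendon, had 343 CPM in STSG day 90 and 15.6 CPM in unwounded skin (21.97-fold, 19.6 to 24.8), and within fibroblast-like cells 608 and 27.6 CPM in the same order. TGFBI, an adhesion protein induced by TGF-beta, was 13.01-fold higher over the libraries and 7.76-fold within fibroblast-like cells. FN1, fibronectin, had 1838 CPM in STSG day 90 and 418 CPM in unwounded skin, and was 2.35-fold higher within fibroblast-like cells. POSTN (1.73-fold) and SPARC (1.77-fold) were higher over the libraries by less than 2-fold, and their ratios within fibroblast-like cells were 0.683 and 0.726.

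Tendon and cartilage matrix genes had the largest list median over the libraries, a log2 ratio of 2.45, with 7 of 11 counted members higher and 2 lower. After weighting to the classes of unwounded skin the median was 1.19. COMP had 45.4 CPM in STSG day 90 and 0.385 CPM in unwounded skin (118-fold, 57.2 to 294), and 10 cells held 29.4% of its STSG day 90 UMIs. MKX, a transcription factor of tendon, had 16.8 CPM in STSG day 90 and 2.36 CPM in unwounded skin. CHAD, chondroadherin of cartilage, was 5.46-fold higher. The members that were lower were SOX9, the chondrocyte factor that hair follicles also use, with 4.41 CPM in STSG day 90 and 20.5 CPM in unwounded skin, and MATN2, with 47.0 and 106 CPM in the same order. SOX9 was highest in keratinocyte-like cells of both libraries.

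Enzymes that process and crosslink collagen were higher in 14 of 22 counted members, and 0 were lower. Within fibroblast-like cells 5 of 24 were higher and 1 lower. P4HA3, a subunit of prolyl 4-hydroxylase, had 199 CPM in STSG day 90 and 14.7 CPM in unwounded skin (13.6-fold, 12.03 to 15.4). PLOD2, the lysyl hydroxylase of telopeptide crosslinks, had 65.6 CPM in STSG day 90 and 6.71 CPM in unwounded skin, and was 8.19-fold higher within fibroblast-like cells. LOXL1, a lysyl oxidase of elastic tissue, was 6.93-fold higher over the libraries and 2.64-fold within fibroblast-like cells. LOX itself had 317 CPM in STSG day 90 and 109 CPM in unwounded skin, but 586 and 582.5 CPM within fibroblast-like cells in the same order.

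Among small leucine-rich proteoglycans, which coat collagen fibrils, 6 of 10 were higher and 0 lower. ASPN, asporin, had 876 CPM in STSG day 90 and 64.4 CPM in unwounded skin (13.6-fold, 12.8 to 14.4) and was 9.86-fold higher within fibroblast-like cells. FMOD, fibromodulin, was 12.8-fold higher over the libraries and 7.18-fold within fibroblast-like cells. DCN, decorin, the main one of skin, had 2252 CPM in STSG day 90 and 1315 CPM in unwounded skin. Its ratio within fibroblast-like cells was 0.598.

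Of 19 metalloproteinases and inhibitors, 9 were higher and 2 lower. MMP2, the gelatinase of fibroblasts, had 1516 CPM in STSG day 90 and 308 CPM in unwounded skin, and was 2.29-fold higher within fibroblast-like cells. ADAM12, a membrane protease of wound stroma, was 17.5-fold higher, at 153 CPM in STSG day 90 and 8.74 CPM in unwounded skin. MMP9, a gelatinase of leukocytes, had 39.8 CPM in STSG day 90 and 0.550 CPM in unwounded skin. It was highest in myeloid-like cells of both libraries, with 836 CPM in STSG day 90, and 10 cells held 63.0% of its STSG day 90 UMIs. TIMP1, an inhibitor of these enzymes, had 1223 CPM in STSG day 90 and 485 CPM in unwounded skin.

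Elastic fibre genes differed in both directions over the libraries, with 5 of 16 higher and 2 lower, and within fibroblast-like cells 0 of 17 were higher and 5 lower. In the shared clusters 1 of 17 was higher and 0 lower (median log2 ratio 0.15). MFAP4, a microfibril protein, was 3.40-fold higher over the libraries but lower in pericyte or smooth muscle-like cells, with 97.6 CPM in STSG day 90 and 529 CPM in unwounded skin. Hyaluronan genes were higher in 4 of 10 members, among them CEMIP, which takes part in hyaluronan breakdown, with 14.3 CPM in STSG day 90 and 0.825 CPM in unwounded skin.

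Basement membrane genes were lower in 8 of 17 counted members and higher in 0. COL17A1, which anchors basal keratinocytes, had 4.15 CPM in STSG day 90 and 109 CPM in unwounded skin (26.4-fold lower, 23.4 to 29.7). LAMB3, a chain of the epidermal laminin, had 0.454 CPM in STSG day 90 and 10.1 CPM in unwounded skin. Both were highest in keratinocyte-like cells. LAMB2, a laminin chain of vessels, had 11.3 CPM in STSG day 90 and 40.2 CPM in unwounded skin, and was also lower within pericyte or smooth muscle-like cells (35.6 and 106 CPM in the same order). COL4A2 of the vascular basement membrane had a ratio of 1.03 over the libraries.

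Contractile genes had a median log2 ratio of -0.08 over the libraries, where 3 of 17 were higher and 2 lower, and of 2.26 within fibroblast-like cells. ACTA2, the smooth muscle actin that marks myofibroblasts, had 989.6 CPM in STSG day 90 and 895.7 CPM in unwounded skin, a ratio of 1.11 (1.09 to 1.12). Within fibroblast-like cells it had 553 CPM in STSG day 90 and 24.1 CPM in unwounded skin, which is 22.9-fold (18.3 to 29.1). Its share of thinned fibroblast-like cells was 25.9% in STSG day 90 and 3.21% in unwounded skin, against 8.397% of T or NK-like cells in STSG day 90 and 0 of 16 in unwounded skin. Fibroblast-like cells held 27.6% of all ACTA2 UMIs in STSG day 90 and 0.473% in unwounded skin. In pericyte or smooth muscle-like cells ACTA2 had 6310 CPM in STSG day 90 and 6175 CPM in unwounded skin.

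TAGLN, an actin-binding protein of smooth muscle, had 1674 CPM in STSG day 90 fibroblast-like cells and 62.9 CPM in unwounded ones (26.6-fold), and was 8.10-fold higher in the shared clusters. CNN1, calponin, had 44.4 CPM in STSG day 90 fibroblast-like cells against 0.940 CPM, or 3 UMIs, in unwounded ones, a ratio of 47.3 (16.2 to 230). MYH11, the myosin of mature smooth muscle, had 5.52 CPM in STSG day 90 fibroblast-like cells and 3.45 CPM in unwounded ones, under the counted level. In pericyte or smooth muscle-like cells it was lower, with 824 CPM in STSG day 90 and 1893 CPM in unwounded skin. Of 12 contractile genes counted in fibroblast-like cells, 10 were 2-fold higher and 0 lower. In the shared clusters 6 of 12 were higher and 0 lower.

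Focal adhesions are the sites where cells grip the matrix. Of 18 of their genes counted over the libraries, 1 was higher and 2 lower, shares near those of all genes. Within fibroblast-like cells 4 of 17 were higher and 1 lower, and in the shared clusters 1 of 15 was higher and 0 lower. PTK2, which encodes FAK, had 46.4 CPM in STSG day 90 and 54.3 CPM in unwounded skin, and its ratio within fibroblast-like cells was 1.12 (0.877 to 1.46). PDLIM7, an actin-associated adaptor, was 2.16-fold higher over the libraries and 5.59-fold within fibroblast-like cells (334 CPM in STSG day 90, 59.8 CPM in unwounded skin). PTK2B, the relative of FAK, was lower, with 8.86 CPM in STSG day 90 and 23.0 CPM in unwounded skin.

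Among 16 integrins, the matrix receptors, 3 were higher and 3 lower. ITGA11, the collagen receptor of fibroblasts, had 47.8 CPM in STSG day 90 and 1.32 CPM in unwounded skin (36.2-fold, 24.3 to 56.6) and was 17.9-fold higher within fibroblast-like cells. ITGB1, the common beta chain, had 542 CPM in STSG day 90 and 402 CPM in unwounded skin, and was 2.73-fold higher within fibroblast-like cells. ITGB4 of hemidesmosomes had 41.6 CPM in STSG day 90 and 105 CPM in unwounded skin.

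YAP1, a transcriptional coactivator that responds to mechanical load, had 50.1 CPM in STSG day 90 and 63.1 CPM in unwounded skin. Of 21 genes of its pathway and targets, 1 was higher and 4 lower, beside 5.08% and 9.25% of all counted genes. CCN2, a secreted target, was 2.05-fold higher, at 275 CPM in STSG day 90 and 134 CPM in unwounded skin, and its ratio within fibroblast-like cells was 1.09. CCN1, another target, had 308 CPM in STSG day 90 and 212 CPM in unwounded skin. In the TGF-beta, activin and BMP list, 1 of 25 was higher and 2 lower, shares near those of all counted genes (5.08% and 9.25%). Within fibroblast-like cells 1 was higher and 9 lower, and in the shared clusters 0 of 25 were higher and 3 lower. INHBA, the activin A subunit, had 26.0 CPM in STSG day 90 and 6.597 CPM in unwounded skin. FST, follistatin, which binds activin, was 10.6-fold lower within fibroblast-like cells, with 10.2 CPM in STSG day 90 and 108 CPM in unwounded skin. BMP2 had 11.1 CPM in STSG day 90 and 37.4 CPM in unwounded skin.

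Genes that mark fibroblasts of unwounded dermis and the adventitia were lower in 9 of 15 members within fibroblast-like cells and higher in 1, with a median log2 ratio of -1.42. CLEC3B, tetranectin, had 254 CPM in STSG day 90 fibroblast-like cells and 2141 CPM in unwounded ones, an 8.42-fold difference. CFD, adipsin, had 449 CPM in STSG day 90 and 2612 CPM in unwounded fibroblast-like cells. In the shared cluster with 137 unwounded cells CFD was higher, at 4645 CPM in STSG day 90 and 2301 CPM in unwounded skin. In the other shared clusters CFD was lower. APOD, a lipid carrier, was 12.1-fold lower (59.3 CPM in STSG day 90, 718 CPM in unwounded skin). ABCA8, a lipid transporter, was 19.9-fold lower. Another 5 members passed 2-fold in neither direction, among them PI16, with 913 CPM in STSG day 90 and 738 CPM in unwounded fibroblast-like cells. Within the shared clusters the same list had 2 members higher and 3 lower of 15 (median -0.24), and CLEC3B had 1143 CPM in STSG day 90 and 2141 CPM in unwounded skin.

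Other genes with the largest ratios within fibroblast-like cells add to those lower in the graft. PENK, proenkephalin, had 16.3 CPM in STSG day 90 and 409 CPM in unwounded skin, which is 25.1-fold lower (22.8 to 27.6). GPC3, a cell-surface proteoglycan, had 37.2 CPM in STSG day 90 and 585 CPM in unwounded skin. CADM3, a cell adhesion molecule, had 2.04 CPM in STSG day 90 and 94.9 CPM in unwounded skin. FGL2, a fibrinogen-like protein, had 22.1 CPM in STSG day 90 and 391 CPM in unwounded skin. KRT8, an epithelial keratin, was 257-fold lower, but its unwounded UMIs came from 1.16% of fibroblast-like cells. These genes were compared over all fibroblast-like cells, and 70.5% of those in STSG day 90 lay in clusters without unwounded cells. PENK was among the genes most raised in a shared cluster. That cluster held 53.1% of unwounded and 9.08% of STSG day 90 fibroblast-like cells. The part of cluster shares in these differences was not tested.

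Wnt modulators went both ways. SFRP4, a relative of SFRP2, had 341 CPM in STSG day 90 and 30.4 CPM in unwounded skin (11.2-fold), and DKK3 was 10.3-fold higher. APCDD1, a membrane inhibitor of Wnt, had 17.9 CPM in STSG day 90 and 87.5 CPM in unwounded skin and was 8.54-fold lower within fibroblast-like cells. AXIN2, a target of canonical Wnt signalling, was 6.82-fold lower within fibroblast-like cells, with 6.11 CPM in STSG day 90 and 41.7 CPM in unwounded skin. Of 14 list members counted in fibroblast-like cells, 4 were higher and 8 lower, and in the shared clusters 3 were higher and 9 lower.

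In the insulin-like growth factor axis, IGFBP2, a binding protein, had 1095 CPM in STSG day 90 fibroblast-like cells and 29.8 CPM in unwounded ones (36.8-fold, 30.1 to 45.5). IGFBP4 was 7.74-fold higher there. Of the 10 members counted over the libraries, 2 were higher and 2 lower. Of 15 genes of retinoid, prostaglandin and steroid metabolism, 5 were higher and 4 lower. CRABP1, which binds retinoic acid, had 697 CPM in STSG day 90 and 120 CPM in unwounded skin, and was 2.04-fold higher within fibroblast-like cells. Among 20 transcription factors of skin, 4 were higher and 2 lower. RUNX1 was higher in each of the 3 large classes, 5.73-fold in fibroblast-like, 5.75-fold in pericyte or smooth muscle-like and 5.20-fold in endothelial-like cells. NFIB had 80.4 CPM in STSG day 90 and 194 CPM in unwounded skin.

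All 22 counted keratinocyte genes and all 9 counted appendage genes were at least 2-fold lower in STSG day 90, with median folds of 31.5 and 10.6. SPRP, a small proline-rich protein of the cornified layer, had 0.593 CPM in STSG day 90 and 63.6 CPM in unwounded skin, a 107-fold difference (80.0 to 147). KRTDAP, a marker of differentiating keratinocytes, had 9.99 CPM in STSG day 90 and 612 CPM in unwounded skin (61.3-fold lower). KRT1, the keratin of suprabasal layers, had 10.1 CPM in STSG day 90 and 467 CPM in unwounded skin (46.5-fold lower). In STSG day 90, 10 cells held 97.6% of the KRTDAP UMIs and 98.9% of the KRT1 UMIs.

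Several of the 15 genes with the lowest ratios encode cell junction proteins. DSG1, the desmoglein of upper layers, was 55.5-fold lower (46.1 to 67.4), at 1.53 CPM in STSG day 90 and 84.8 CPM in unwounded skin. CLDN1, a tight-junction claudin, had 1.84 CPM in STSG day 90 and 88.2 CPM in unwounded skin. DSP, desmoplakin, had 4.31 CPM in STSG day 90 and 145 CPM in unwounded skin. PERP, a desmosomal protein, had 22.1 CPM in STSG day 90 and 716 CPM in unwounded skin. The other named members, CALML5, SBSN, LY6D, SERPINB5, TRIM29, DMKN and LYPD3, were 32.1 to 75.6-fold lower. KRT15, a keratin of basal and follicle stem cells, had 15.1 CPM in STSG day 90 and 580.2 CPM in unwounded skin.

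Weighted to the classes of unwounded skin, 8 of the 15 lowest genes remained 2-fold lower. KRT14 was 23.6-fold lower over the libraries (151 CPM in STSG day 90, 3565 CPM in unwounded skin), with a class-weighted ratio of 1.09. KRT5 was 26.4-fold lower, with a class-weighted ratio of 1.03. The median log2 ratio of the keratinocyte list was -4.98 over the libraries and -0.63 after weighting, with 5 members still 2-fold lower. These weighted values rest on the 35 keratinocyte-like cells of STSG day 90. SCGB1D1, a secretoglobin of glands, had 34.9 CPM in STSG day 90 and 612 CPM in unwounded skin. KRT25, a keratin of the inner root sheath of hair, had 0.0884 CPM in STSG day 90 and 15.0 CPM in unwounded skin, where 1 cell held at least 50% of its UMIs.

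**Figure D4:**
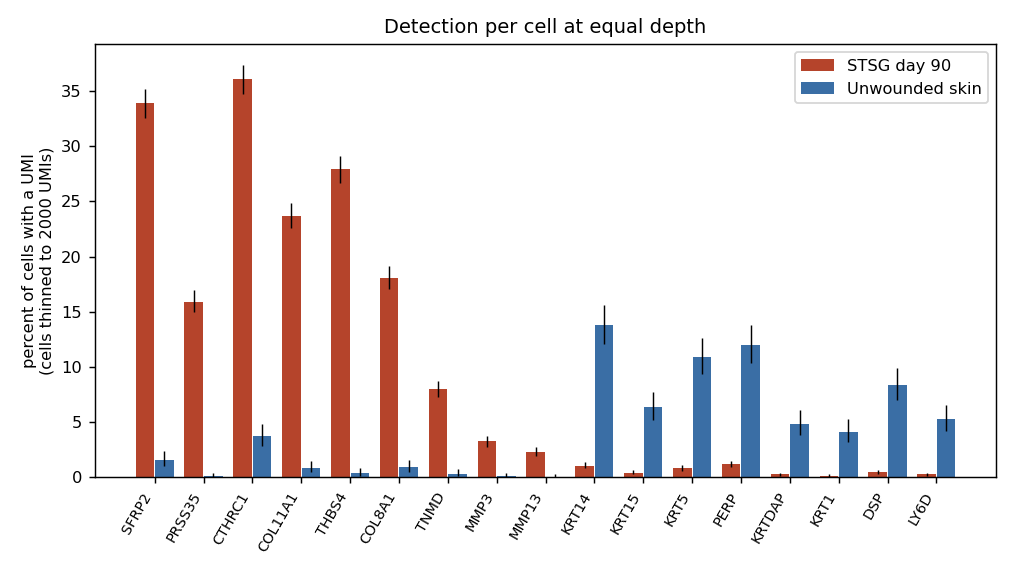
Share of cells with at least 1 UMI (vertical axis, percent) after each cell was thinned to 2000 UMIs, in STSG day 90 (red, 5253 cells) and unwounded skin (blue, 1461 cells). Lines are 95% exact binomial intervals. SFRP2 was detected in 33.9% of STSG day 90 cells and 1.57% of unwounded cells, and KRT14 in 1.05% and 13.8% in the same order of groups.

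Mast-like cells were few and shallow (241 in STSG day 90 and 59 in unwounded skin, with medians of 1707 and 2389 UMIs), and of 2812 genes counted in them, 232 (8.25%) were 2-fold higher and 153 (5.44%) lower. Without likely doublets, 144 genes were 2-fold higher in mast-like cells. Among the larger classes, endothelial-like cells had the smallest share of genes past 2-fold. Of 7175 genes counted, 144 (2.01%) were 2-fold higher in STSG day 90 and 167 (2.33%) lower. The class sums differed in depth. Endothelial-like cells held 44.8% of unwounded UMIs, fibroblast-like cells 17.55% and pericyte or smooth muscle-like cells 10.9%. The part of depth in this order of classes was not tested. Endothelial marker genes were lower over the libraries in 4 of 29 members and higher in 0, beside 9.25% and 5.08% of all counted genes. Within endothelial-like cells 2 of 30 were higher and 1 lower. CLDN5, the endothelial claudin, had 792 CPM in STSG day 90 endothelial-like cells and 1026 CPM in unwounded ones. Of 13 genes of lipid-handling and tissue macrophages counted in endothelial-like cells, 1 was higher and 2, CD36 and FABP4, were lower. CD36, a fatty acid receptor, had 175 CPM in STSG day 90 and 704 CPM in unwounded endothelial-like cells (4.03-fold lower). FABP4, a fatty acid carrier of capillaries, had 2438 CPM in STSG day 90 and 5643 CPM in unwounded ones. RBP7, a retinoid-binding protein, had 40.9 CPM in STSG day 90 and 160 CPM in unwounded ones, and ADIRF, an adipogenesis regulator, 312 and 1134 CPM in the same order.

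PLAU, urokinase, was 3.26-fold higher in endothelial-like cells of STSG day 90, at 341 CPM against 105 CPM in unwounded ones, and stood at 16.03 CPM in T or NK-like cells of STSG day 90. The TIMP1 level, 1152 CPM in STSG day 90 and 376 CPM in unwounded skin, stood beside 1288 CPM in T or NK-like cells of STSG day 90 and 209.9 CPM in those of unwounded skin. TIMP1 was detected in 92.2% of endothelial-like and 48.9% of T or NK-like cells of STSG day 90, at medians of 9141 and 2217 UMIs per cell. SFRP2 had 63.3 CPM in endothelial-like cells of STSG day 90 and 62.7 CPM in T or NK-like cells of the same library. Its thinned share was 4.72% in the endothelial-like cells, under the 12.98% in the T or NK-like cells.

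Pericyte or smooth muscle-like cells had 263 genes (3.6% of 7299) 2-fold higher in STSG day 90 and 297 (4.07%) lower. CCL19, a chemokine that attracts T cells and dendritic cells, had 3641 CPM in STSG day 90 and 744 CPM in unwounded skin within this class (4.90-fold, 4.65 to 5.16). Its level in T or NK-like cells was 74.3 CPM in STSG day 90 and 0 UMIs in unwounded skin. SLA-DQB1, an MHC class II chain, was 4.39-fold higher there, at 151 CPM in STSG day 90 and 34.3 CPM in unwounded skin, although T or NK-like cells held 903 and 582 CPM in the same order. CXCL14, a chemokine of skin, had 143 CPM in STSG day 90 and 1.52 CPM, or 3 UMIs, in unwounded skin, a ratio of 94.3 (32.2 to 458). In T or NK-like cells CXCL14 had 45.2 CPM in STSG day 90 and 0 UMIs in unwounded skin. CXCL9, an interferon-induced chemokine, had 155 CPM in STSG day 90 and 0 UMIs in unwounded cells of this class. Against a floor of 3 UMIs it was 102-fold higher (lower limit 83.0). It was present in 2.89% of the STSG day 90 cells of the class. Lower in the class were MFAP4, given above, and ADIRF, with 1079 CPM in STSG day 90 and 3594 CPM in unwounded skin.

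Interferon response genes were lower in 12 of 20 counted members and higher in 0, with a median log2 ratio of -1.31 over the libraries and -0.88 after class weighting. ISG15, a ubiquitin-like protein, had 299 CPM in STSG day 90 and 1040 CPM in unwounded skin (3.48-fold lower, 3.41 to 3.54). Within endothelial-like cells it had 883 CPM in STSG day 90 and 2069 CPM in unwounded skin. IFIT1, which binds foreign RNA, had 31.4 CPM in STSG day 90 and 107 CPM in unwounded skin, and RSAD2, viperin, 15.1 and 62.5 CPM in the same order. Within endothelial-like cells 9 of 22 members were lower and 1 higher, and within fibroblast-like cells 4 of 10 were lower and 0 higher. Other classes differed less or otherwise. Within pericyte or smooth muscle-like cells 1 of 14 was lower and 0 higher. In the shared fibroblast-like clusters 1 of 12 was lower and 1 higher (median 0.18), and in mast-like cells 0 of 5 were lower and 2 higher. No gene of the antigen presentation list passed 2-fold in either direction over the libraries, among 11 counted. B2M, the light chain of MHC class I, had 3331 CPM in STSG day 90 and 4977 CPM in unwounded skin.

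Of 13 complement genes 6 were higher and 0 lower over the libraries (median log2 ratio 0.97). After class weighting 1 was higher and 4 lower (median -0.39). C1QB had 244 CPM in STSG day 90 and 62.1 CPM in unwounded skin, but within myeloid-like cells 5183 and 6521 CPM in the same order. CLU, clusterin, had 442 CPM in STSG day 90 and 36.2 CPM in unwounded skin (12.2-fold), and was 11.1-fold higher within fibroblast-like cells. Of 22 genes of lipid-handling and tissue macrophages, 9 were higher and 3 lower over the libraries (median log2 ratio 0.88), and after class weighting 3 were higher and 4 lower (median -0.03). ARG1, arginase, had 2413 UMIs in STSG day 90 and 0 in unwounded skin, which is 185-fold higher against a floor of 3 UMIs. It was highest in myeloid-like cells, and 10 cells held 44.8% of its UMIs. SPP1, osteopontin, had 59.8 CPM in STSG day 90 and 9.18 CPM in unwounded skin. With 333 myeloid-like cells in STSG day 90 and 21 in unwounded skin, the part of cell number in these differences was not tested further than by class weighting.

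Of 16 chemokines 4 were higher and 4 lower over the libraries. Within pericyte or smooth muscle-like cells 6 of 9 chemokines were higher and 0 lower (median log2 ratio 1.20), and within fibroblast-like cells 4 of 8 were higher and 2 lower. In the shared fibroblast-like clusters 7 of 10 were higher and 0 lower (median 2.21). Of 16 cytokines and receptors 3 were higher and 4 lower over the libraries. AMCF-II, a porcine neutrophil attractant, had 33.5 CPM in STSG day 90 and 1.59 CPM in unwounded skin (21.0-fold). IL6 had 390 CPM in STSG day 90 and 686 CPM in unwounded skin. IL18 had 31.6 CPM in STSG day 90 and 6.71 CPM in unwounded skin, and CCL28, an epithelial chemokine, had 0.707 and 18.9 CPM in the same order.

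Immediate early genes, which respond to stress and to enzymatic digestion, were lower in 6 of 17 members and higher in 0 (median log2 ratio -0.90). FOS had 2200 CPM in STSG day 90 and 3788 CPM in unwounded skin, and KLF4 400.1 and 1086 CPM in the same order. The part of digestion was not tested. Heat shock genes, which digestion can also raise, were lower in 1 of 13 and higher in 0, and HSPA8 had 1418 CPM in STSG day 90 and 1422 CPM in unwounded skin. Of 13 mitochondrially encoded genes, 5 were lower and 0 higher (median -0.94). ND6 stood apart, with 12.7 CPM in STSG day 90 and 92.3 CPM in unwounded skin (7.29-fold lower), and it was 4.42 to 7.03-fold lower in each large class. Hypoxia and glycolysis genes were lower in 1 of 19 and higher in 0. Cell cycle genes were higher in 2 of 14, UBE2C and CENPF, and lower in 1, STMN1. Of all counted genes, 5.08% were higher and 9.25% lower, and the small counts of the heat shock, hypoxia and cell cycle lists are not set apart from these shares.

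**Figure D5:**
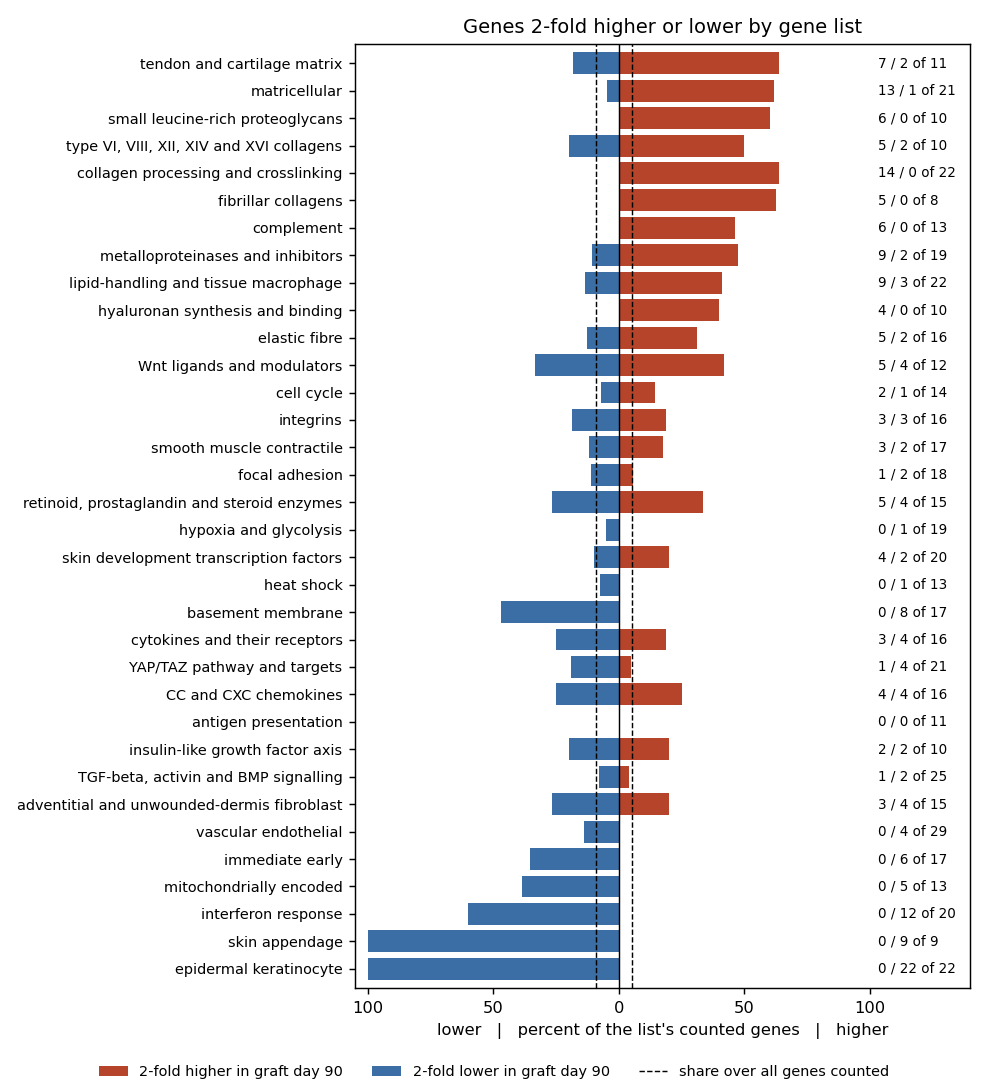
Percent of each list's counted genes that were 2-fold higher (red, right) or 2-fold lower (blue, left) in STSG day 90 than in unwounded skin, ordered by the list's median log2 ratio. Numbers at the right give genes higher, lower and counted, and the dashed lines the shares over all 7781 counted genes (5.08% higher, 9.25% lower). Matrix lists stand at the top, and the interferon, appendage and keratinocyte lists at the bottom.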

How the data were processed

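Cells were profiled with droplet-based 3' single-cell RNA sequencing, per the labels' protocols. The submitters' processing notes name Cell Ranger and Seurat 3.1.1, and the file headers give a software version of 3.1.0. The deposited matrices hold raw UMI counts per gene and barcode, with no normalization. The genome build is not given in the sources used here.

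Of the deposited barcodes, 5706 of 6074 in STSG day 90 and 1586 of 1883 in unwounded skin had at least 500 genes and were kept, and these held 99.6% and 98.4% of the UMIs. Counts were summed per library or class and scaled to counts per 1000000 (CPM) over all 20286 gene rows, and genes were used by the 14672 symbols in the files. A gene was counted at 10 CPM in either library, called at 2-fold, and compared without a test. Ratios have exact conditional binomial intervals and shares Clopper-Pearson intervals. A 0 was set against a floor of 3 UMIs. Both libraries were clustered together (2000 variable genes, 30 principal components, 20 neighbours, Leiden resolution 1), clusters were named from marker lists, and classes were compared with 50 cells in each library. In a class, the genes named had at least 30 UMIs. Doublets were kept in the main values. Scrublet's own threshold marked 79 cells of STSG day 90 and 4 of unwounded skin, and an alternative removed the 260 and 20 top-scoring cells. Thinned shares used cells with at least 2000 UMIs, leaving out 453 cells of STSG day 90 and 125 of unwounded skin.

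The genes named were the 15 highest and 15 lowest ratios at 50 CPM or more, members of 35 gene lists with the highest level or largest ratios, and collagen, ACTA2, PTK2 and YAP1 as genes central to the study. Other list members, and the genes named for their ratio within a class, were chosen after their values were seen. The comparison, members and lists were chosen with earlier results of these data known. Clustering used Scanpy 1.11.5 with igraph 0.11.9 and scikit-learn 1.9.0, and intervals used SciPy 1.17.1 and NumPy 2.4.6. Tables used pandas 2.3.3 and figures Matplotlib 3.10.9, and all ran under Python 3.11.15. The rule of size was run on simulated libraries with counting noise and planted folds only. These held no variation between animals, digestions or cell mixes. Alternatives were other cell filters, scalings, level filters, folds, class weighting and clustering.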

Additional observations from a re-analysis of the deposited data

Results flagged for a closer look

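Basement membrane genes had a median log2 ratio of STSG day 90 over unwounded skin of 2.28 in mast-like cells, where 3 were counted, and -1.14 in fibroblast-like cells, where 11 were counted. The list was singled out because its members moved in opposite directions in the classes, and the difference was not tested. Mast-like cells numbered 241 in STSG day 90 and 59 in unwounded skin. Of 2812 genes counted in them, 232 (8.25%) were 2-fold higher in STSG day 90 and 153 (5.44%) were lower. Without likely doublets, 144 were higher.

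Adventitial and unwounded-dermis fibroblast genes had a median log2 ratio of 2.28 in mast-like cells, where 5 were counted, and -1.42 in fibroblast-like cells, where 15 were counted. This difference was not tested either. COL1A1, which mast cells should lack, had 10230 CPM in mast-like cells of STSG day 90 and 157.7 CPM in those of unwounded skin.

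Gene rows without a symbol in the files were outside the comparisons above. Among 828 of them counted, 54 were 2-fold higher in STSG day 90 and 110 were 2-fold lower. The gene ENSSSCG00000038719 had 8467 CPM in STSG day 90 and 3.35 CPM in unwounded skin, and 99.4% of its STSG day 90 UMIs lay in the 62 B or plasma-like cells. ENSSSCG00000036224 had 8022 CPM in STSG day 90 and 3.68 CPM in unwounded skin, with 96.8% of its STSG day 90 UMIs in those cells. ENSSSCG00000037879 had 6.19 CPM in STSG day 90 and 356 CPM in unwounded skin, where 99.7% of its UMIs lay in keratinocyte-like cells.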

How the results depend on the processing

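The count of 395 genes higher in STSG day 90 ranged from 334 to 445, and that of 720 genes lower from 637 to 755, under other cell filters, doublet removal, median-of-ratios scaling or removal of the shallow shared barcodes, and for genes higher also under the mean of per-cell CPM. The mean of per-cell CPM gave 470 genes lower. A level of 50 CPM gave 195 higher and 242 lower, no filter on levels 874 and 2423, and a 1.5-fold rule 748 and 1746. Class weighting gave 143 higher and 239 lower, and 0 lists with a median past 2-fold against 9 without it, when members were counted anew at 10 CPM after weighting. Over the members counted before weighting, 1 list, tendon and cartilage matrix, stayed past 2-fold with a median log2 ratio of 1.19, against 0.87 over those counted anew. Within fibroblast-like cells, the clusters with both libraries gave 266 higher and 308 lower. Doublet removal gave 144 genes higher in mast-like cells, against 232 with all cells. Where fewer genes or other cells enter, the construction of the alternative changes the count, and otherwise the cause was not tested. None of the 30 genes with the largest ratios changed direction under any of these settings over whole libraries, and 23 of the 30 stayed past 2-fold under class weighting. These genes were chosen for their large ratios, and the level filters and the 1.5-fold rule leave a ratio unchanged. The lack of reversals was therefore nearly fixed in advance and is no support. The removal of shallow shared barcodes and the restriction to shared clusters were chosen after seeing the data. No paired analysis was possible because each group is 1 library. The depth of unwounded skin put the floor of 3 UMIs at 0.165 CPM, against 0.0379 CPM in STSG day 90.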

Other observations

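Some gene rows without a symbol in the files could be named by their gene ID in the table of gene names, which gave a symbol for 677 of 5612 such rows. C1QTNF3, a secreted protein of cartilage, had 312 CPM in STSG day 90 and 11.5 CPM in unwounded skin (27.1-fold, 23.7 to 31.2). ODAPH, a protein of tooth enamel, had 53.1 CPM in STSG day 90 and 0.330 CPM in unwounded skin. IGFBP6 had 471 CPM in STSG day 90 and 98.7 CPM in unwounded skin. Without a symbol it was not counted in the adventitial and insulin-like growth factor lists. PDPN, podoplanin of lymphatic vessels and activated fibroblasts, had 101 CPM in STSG day 90 and 29.8 CPM in unwounded skin. Lower were FXYD3, an epithelial ion transport regulator, with 7.41 CPM in STSG day 90 and 137 CPM in unwounded skin, and MT1X, a metallothionein, with 93.7 and 715 CPM in the same order. These genes were chosen after their values were seen.

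The 15 genes with the lowest ratios were highest in unwounded skin among all 5 libraries of the series, and 13 of them were lowest in STSG day 90. KRTDAP had 143 CPM in the untreated graft and 99.1 CPM in the inhibitor graft at day 7, and 136 CPM in the inhibitor graft at day 90.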
